A study of Homo sapiens with 9 samples.

Results

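Kinesins and centromere proteins were examined as 66 protein-coding genes of the 58735 genes in the deposited count table, 19951 of which are protein-coding. A gene was a member when its name held KIF followed by a digit or CENP followed by a capital letter, which gave 40 KIF genes and 26 CENP genes. No measured value entered that rule. Poly-A RNA was sequenced from OVCAR3, an established human cell line from a high-grade serous ovarian carcinoma, after 72 h in culture, with 3 libraries in each of 3 groups. The control group carried a scramble hairpin (SCR in the labels). The other groups carried shRNA#76 or shRNA#78, short hairpin RNAs against GPX3, the gene of the secreted glutathione peroxidase 3, and are called sh76 and sh78. All 3 groups thus carried a hairpin vector, the libraries come from a single cell line, and the labels do not say whether replicates were separate transductions or cultures.

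Kinesins are motor proteins that burn ATP to walk along microtubules or to take them apart. Mitotic kinesins build the spindle, move chromosomes and complete cell division, and their genes are switched on late in the cell cycle, whereas transport kinesins carry vesicles, organelles and mRNA in dividing and non-dividing cells. CENP proteins mark the centromere with the histone variant CENPA, assemble on it a constitutive network that stays through the cell cycle, and, in the case of CENPE and CENPF, join the outer kinetochore in mitosis.

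The members were sorted by textbook role into 13 mitotic kinesins, 15 transport kinesins, 11 other kinesins, the kinesin-binding protein KIF1BP, 2 centromere chromatin genes, 15 genes of the constitutive network, 2 outer kinetochore genes and 7 other CENP-named genes. Of the 66 members, 60 passed the count filter and were tested. The other 6 (KIF2B, KIF19, KIF25, CENPS-CORT, CENPVL1 and CENPVL2) lay below it, and KIF2B and CENPVL2 had 0 counts in all 9 libraries, where a count of 0 allows up to 3 counts per library by counting error alone.

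Promoter sequence is given first, although it was searched after the expression results were known. Genes that peak in mitosis are known to carry a pair of short elements. One is the cell cycle genes homology region (CHR, searched as TTTGAA), read by the MuvB complex. The other is the CCAAT box (searched as CCAAT), read by NF-Y. Both strands were searched in RefSeq windows on GRCh38.p14 that run from 250 bases before to 50 bases after a start site. Of the 66 members, 56 had at least 1 window. KIF13B, KIF21B, KIF5A, KIF19, KIF26B, KIF27, CENPH, CENPL, CENPM and CENPBD1 had no entry. TTTGAA was in a window of 9 of 13 mitotic kinesins (69.2%), 1 of 12 transport kinesins (8.3%) and 3 of 12 genes of the constitutive network (25.0%), against 15.2% of all 35116 promoters. CCAAT was in a window of 10 of 13 mitotic kinesins (76.9%), 4 of 12 transport kinesins (33.3%) and 8 of 12 constitutive network genes (66.7%), against 34.6% of all promoters. Both were present for 8 mitotic kinesins (61.5%), 1 transport kinesin, KIF5B, and 2 constitutive network genes, against 5.9% of all promoters. Members with several listed starts had several windows (67 windows for the 56 genes), so a share of genes is not on quite the same footing as a share of promoters. Over the 10809 protein-coding genes tested for expression that had a window, the shares were 13.8%, 43.0% and 5.7%. The motifs can overlap by at most 1 base, and a match is a description of the sequence, not a bound site.

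The sequences below are the 100 bases before the start site, 5′ to 3′ on the gene's strand, with each match to either motif in capitals (a CHR match reads TTTGAA on the gene's strand, and a match on the other strand is its reverse complement; likewise for CCAAT). KIF11, KIF4A, KIF18A and KIF23 show the paired arrangement. KIF20A and CENPF are shown as called genes with CCAAT matches alone in this stretch, and KIF13A and KIF3C as called transport kinesins with neither motif.
KIF11 (chr10:92593030-92593129, plus strand): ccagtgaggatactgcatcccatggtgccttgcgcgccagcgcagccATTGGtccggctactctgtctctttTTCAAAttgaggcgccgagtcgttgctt
KIF4A (chrX:70290004-70290103, plus strand): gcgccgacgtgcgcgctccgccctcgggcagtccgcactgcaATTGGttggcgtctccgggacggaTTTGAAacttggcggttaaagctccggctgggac
KIF18A (chr11:28108157-28108256, minus strand): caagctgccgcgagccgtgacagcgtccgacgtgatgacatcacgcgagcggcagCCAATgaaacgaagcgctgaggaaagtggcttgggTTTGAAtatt
KIF23 (chr15:69414249-69414348, plus strand): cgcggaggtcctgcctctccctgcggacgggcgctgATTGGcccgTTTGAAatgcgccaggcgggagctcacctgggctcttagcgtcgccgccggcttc
KIF20A (chr5:138179012-138179111, plus strand): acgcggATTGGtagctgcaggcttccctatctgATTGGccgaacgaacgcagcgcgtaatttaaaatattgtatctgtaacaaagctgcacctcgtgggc
CENPF (chr1:214603095-214603194, plus strand): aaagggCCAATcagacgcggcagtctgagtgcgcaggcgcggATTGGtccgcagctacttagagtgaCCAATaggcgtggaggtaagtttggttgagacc
KIF13A (chr6:17987636-17987735, minus strand): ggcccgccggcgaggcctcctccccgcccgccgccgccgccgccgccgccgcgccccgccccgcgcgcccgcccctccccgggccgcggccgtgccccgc
KIF3C (chr2:25982498-25982597, minus strand): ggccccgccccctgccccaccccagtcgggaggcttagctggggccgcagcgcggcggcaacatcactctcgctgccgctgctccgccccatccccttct

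In KIF11, KIF4A, KIF18A and KIF23 the CCAAT match began 53, 58, 45 and 64 bases before the start site and the TTTGAA match began 28, 34, 10 and 55 bases before it, so in each of these 4 the CCAAT box was the farther of the pair. KIF20A had 2 CCAAT matches, at 94 and 67 bases before the start, and no TTTGAA in its window. CENPF had 3 CCAAT matches in the stretch shown, and its TTTGAA match lay 41 bases past the start. The window of CENPE held neither motif, and neither motif was found for KIF13A or KIF3C.

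**Figure D1:**
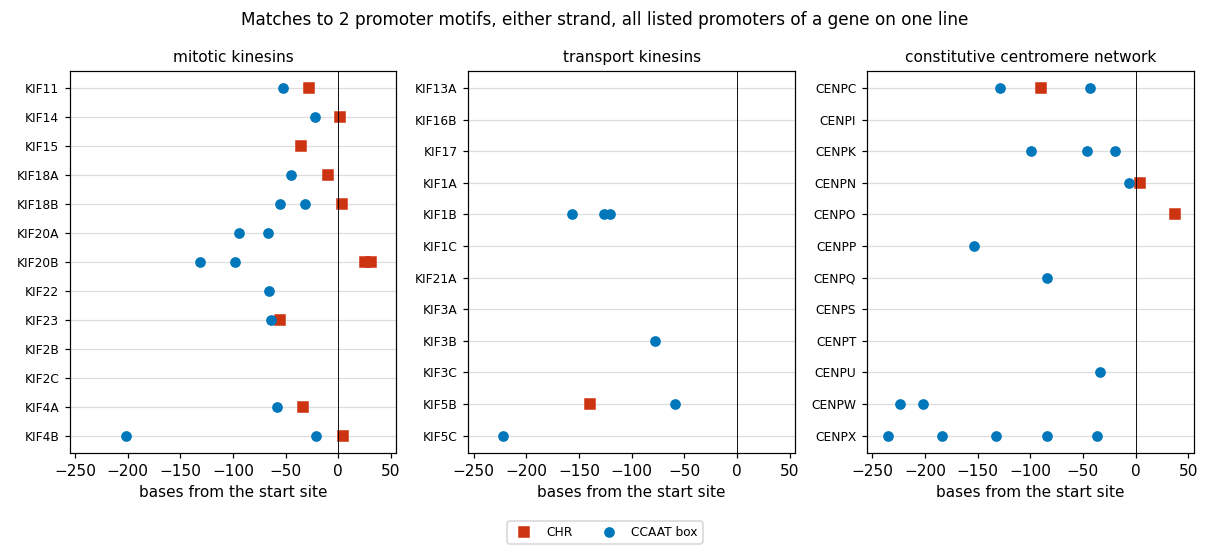
Position of each TTTGAA match (CHR, squares) and CCAAT match (circles) on either strand, in bases from the RefSeq start site at 0, for the mitotic kinesins, transport kinesins and constitutive centromere network genes that had a window. Squares are on 9 of 13 mitotic kinesin lines and on 1 of 12 transport kinesin lines.

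Libraries held 14652965 to 21327562 counts. GPX3 (ENSG00000211445) had 173, 109 and 117 CPM (counts relative to library size, after TMM scaling) with scramble, 56.8, 55.2 and 55.5 CPM with sh76, and 35.3, 28.4 and 28.3 CPM with sh78. It fell by 1.25 on the log2 scale with sh76 and by 2.12 with sh78 (edgeR adjusted p 0.00264 and 0.000125). All 6 markers of serous ovarian epithelium were tested, and their summed level was 10223 to 10973 CPM with scramble, 9026 to 9648 CPM with sh76 and 8162 to 8565 CPM with sh78. The keratin genes KRT8 and KRT18 and the adhesion gene EPCAM fell with sh78, by 0.52, 0.46 and 0.33 on the log2 scale (edgeR adjusted p 0.00259, 0.0105 and 0.00387), and the transcription factor gene PAX8 fell with sh76 by 0.28 (edgeR adjusted p 0.0196). WT1 and MUC16 were not called (log2 fold changes, from here on log2 changes, of −0.58 and 0.18 with sh76 and −0.42 and 0.06 with sh78), and PAX8 was at 0.09 with sh78. With the block on replicate number described below, 5 of the 6 were called with sh76 (1 higher, 4 lower) and 3 lower with sh78. Of 10 markers of immune, endothelial and fibroblast cells, 5 passed the filter, and LUM and CD3E were at or near 0 (up to 0.145 and 0.323 CPM). The summed level of the fibroblast markers, nearly all of it the collagen gene COL1A1, was 25.5 to 37.5 CPM with scramble, 29.2 to 45.2 CPM with sh76 and 31.7 to 44.2 CPM with sh78. COL1A1 was at 0.24 and 0.26 (edgeR adjusted p 0.577 and 0.557) and was called higher with both hairpins with the block (edgeR adjusted p 0.0137 and 0.00496). Summed immune markers had 1.22 to 2.7, 2.42 to 2.82 and 2.54 to 3.39 CPM in the 3 groups, and summed endothelial markers 8.1 to 10.8, 6.23 to 9.21 and 6.81 to 10.7 CPM, with no marker of either called by edgeR with or without the block, by DESeq2 or by limma, and 1 (with sh78) at an unadjusted p under 0.05. The part of these marker differences in the member results was not tested.

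The levels of the members differed widely in the scramble cells. Per length, as FPKM (fragment counts scaled for gene length and depth), CENPX, a small histone-fold subunit of the constitutive network, was the highest at 50.9 ± 3.59 (SD, n = 3). KIF5B, the ubiquitous heavy chain of conventional kinesin, had 38.7 ± 0.821 FPKM, and KIF3B, a motor subunit of the kinesin-2 that serves cilia and vesicles, had 35 ± 1.83. The scramble ranges of these 3 genes did not overlap one another, nor did that of KIF3B overlap that of KIF11, the fourth. KIF11, the motor that pushes the spindle poles apart, had 28.4 ± 2.76 FPKM, CENPF 26.1 ± 1.51, KIF1C, a vesicle and mRNA carrier, 23.6 ± 1.72, and KIF2C, a microtubule depolymerase of the centromere, 23.3 ± 2.28. From KIF11 down to KIF1B at 19.2 ± 1.08 FPKM, each member's scramble range overlapped that of the next in the order.

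The roles also differed in how evenly their members were expressed. Of the 12 tested mitotic kinesins, 11 had a scramble mean between 5.43 FPKM (KIF14) and 28.4 FPKM (KIF11). KIF4B, an intronless near-identical copy of KIF4A whose reads may be shared with it, had 0.128 FPKM. Transport kinesins ran from 0.382 FPKM (KIF21B) to 38.7 FPKM (KIF5B). Several neuronal ones were at the low end: KIF1A had 0.801, KIF5A 0.633 and KIF17 0.466 FPKM. The neuronal KIF5C was higher, at 3.73 FPKM. CENPA and CENPB, the centromeric histone and a centromere DNA-binding protein, had 12 ± 0.948 and 22.4 ± 2.05 FPKM.

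**Figure D2:**
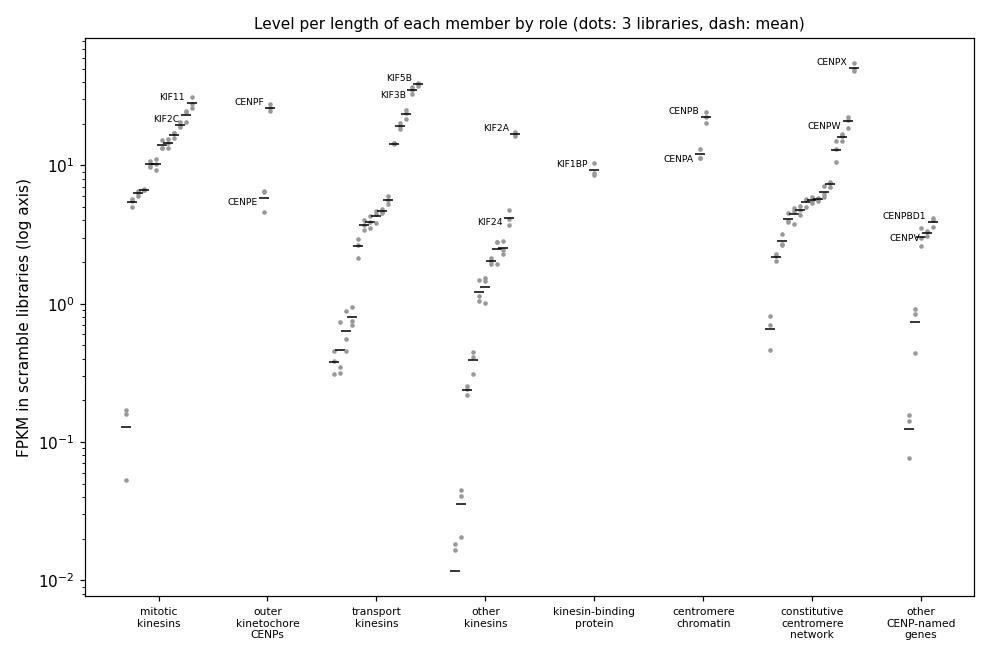
FPKM (log axis) of each member in the 3 scramble libraries (dots; dashes are means), by role; a library listed at 0 is not drawn. The highest 2 members of each role are named, and CENPX sits above all others at a mean of 50.9.

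Against scramble, sh76 called 6 members, 3 higher (KIF20A, KIF18B and CENPF) and 3 lower (KIF13A, KIF1A and KIF26B), at an edgeR adjusted p under 0.05. Over all 17023 genes tested 3.58% were called, 1.43% higher and 2.16% lower. The sh78 hairpin also called 6 members, 4 higher (KIF20A, CENPF, KIF1B and KIF3C) and 2 lower (KIF13A and KIF26B), against 4.41% of all genes, 1.85% higher and 2.56% lower. Both comparisons use the same scramble libraries. The median log2 change of the 60 tested members was 0.02 with sh76 and 0.08 with sh78, beside 0.01 and 0.01 for all genes tested. The called members moved by 0.24 to 0.41 on the log2 scale in either direction, other than KIF26B and, with sh76, KIF1A, which moved further.

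Libraries with the same replicate number deviated together, so a fit blocked on that number is given for the members wherever it changes a call. The block called 15 members with sh76 (9 higher, 6 lower) and 16 with sh78 (13 higher, 3 lower). It called 20.4% of all genes with sh76 (9.63% higher, 10.7% lower) and 19.9% with sh78 (9.79% higher, 10.1% lower). In bulk RNA, fewer or more cells in one phase of the cycle and a change of RNA per cell cannot be told apart.

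**Figure D3:**
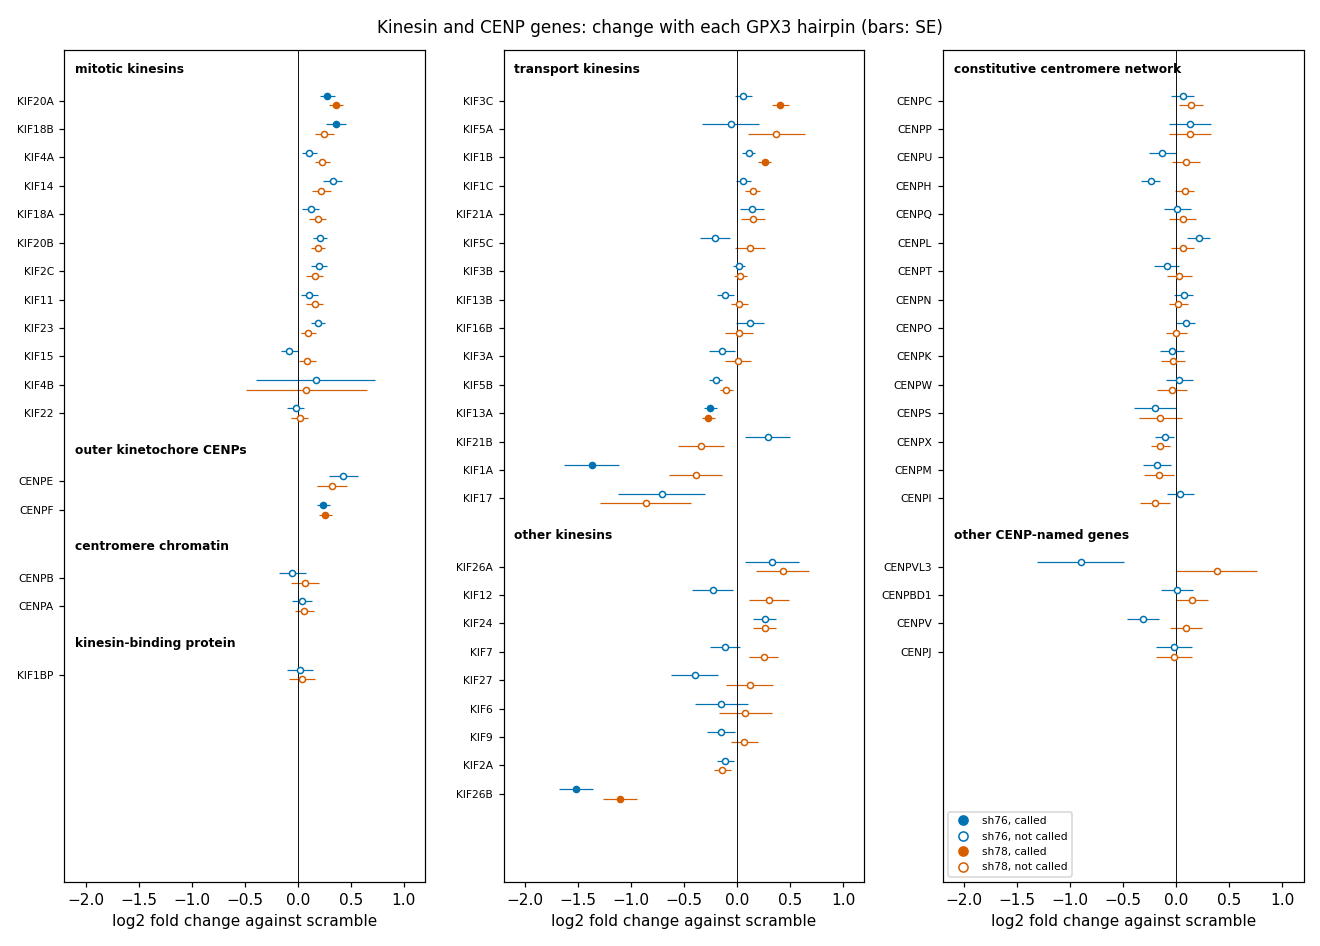
Log2 change against scramble of the 60 tested members with sh76 (blue) and sh78 (orange), by role; bars are SE, and filled points passed an edgeR adjusted p under 0.05 without the replicate block. KIF26B with both hairpins and KIF1A with sh76 lie furthest to the left.

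Among mitotic kinesins, 2 of the 12 tested rose with sh76 (KIF20A and KIF18B) and 1 rose with sh78 (KIF20A), and none fell. The median log2 change was 0.18 with each hairpin, with a positive sign for 10 of 12 genes with sh76 and 12 of 12 with sh78. Of all genes tested 51.4% and 51.3% were positive, and of all tested members 53.3% and 75%. With sh78 the positive share was also 66.7% for transport kinesins and 77.8% for other kinesins (46.7% and 22.2% with sh76). The positive genes with sh78 include KIF22 at 0.02 and KIF4B at 0.08 (SE 0.57). These sign counts rest on role groups set with earlier results of these data known. KIF2A, a spindle-pole depolymerase placed among the other kinesins, was at −0.11 with sh76 and −0.14 with sh78. With the replicate block 6 rose with sh76 and 7 with sh78, and none fell. Among transport kinesins in the same libraries, 2 of 15 fell and none rose with sh76, and 2 rose and 1 fell with sh78. Their medians were −0.06 and 0.02. No test of mitotic against transport kinesins as groups was run.

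KIF20A (ENSG00000112984, chromosome 5, 138178719 to 138187715, plus strand, GRCh38) encodes the kinesin that brings the chromosomal passenger complex to the central spindle. Its levels were 75.4, 76.7 and 81.1 CPM with scramble, 98.4, 89.7 and 96 CPM with sh76, and 97.1, 106 and 95.9 CPM with sh78. Scramble was the lowest group, and its 3 libraries did not overlap the 6 with a hairpin. The log2 change was 0.28 (SE 0.07, edgeR adjusted p 0.0336) with sh76 and 0.36 (SE 0.07, edgeR adjusted p 0.00808) with sh78. The sh78 call held in all 16 alternatives, whereas the sh76 call was lost without any one of the 3 scramble or 3 sh76 libraries (log2 changes 0.26 to 0.32, edgeR adjusted p 0.0588 to 0.124) and with limma on FPKM (adjusted p 0.0839 and 0.0813). Its 3958 exon bases overlap CDC23 and BRD8 on the opposite strand, by 132 bases with the gene of larger overlap. Reads of these unstranded libraries cannot be told apart between the strands.

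KIF18B (ENSG00000186185, chromosome 17, 44924709 to 44947711, minus strand) encodes a plus-end motor that limits the length of astral microtubules. It had 52.5, 43.6 and 48 CPM with scramble, 64.7, 58.7 and 61.1 CPM with sh76, and 63.7, 54.8 and 52.3 CPM with sh78. The sh76 libraries were all above scramble, while the lowest sh78 library was just under the highest scramble library. KIF18B rose with sh76 by a log2 change of 0.36 (SE 0.09, edgeR adjusted p 0.0483). With sh78 it was 0.25 (SE 0.09, edgeR adjusted p 0.171), called with the block (edgeR adjusted p 0.002). The sh76 call was lost without scramble replicate 2 or 3, any sh76 library, or sh78 replicate 2 or 3 (log2 changes 0.28 to 0.39, edgeR adjusted p 0.0566 to 0.194), and with limma on FPKM (adjusted p 0.126 and 0.123).

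Other mitotic kinesins lay above scramble without passing edgeR's test without the block. KIF14, which anchors citron kinase for abscission, had 42.2, 40.4 and 36.6 CPM with scramble and 50.6, 48 and 51.3 CPM with sh76 (log2 change 0.33, edgeR adjusted p 0.0583, 0.000109 with the block). It had 51.4, 45.7 and 41.9 CPM with sh78 (log2 change 0.22, edgeR adjusted p 0.209, 0.0116 with the block), which overlapped scramble. DESeq2 called the sh76 difference of KIF14. KIF2C had 90, 76.1 and 90.4 CPM with scramble, 97.2, 91 and 106 CPM with sh76, and 95.7, 93.6 and 97.4 CPM with sh78. Its hairpin libraries were all above scramble, at log2 changes of 0.20 and 0.16 (edgeR adjusted p 0.207 and 0.325, 0.00324 and 0.0189 with the block).

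KIF20B, a motor of late cytokinesis, was higher than scramble in all 3 same-numbered pairs with each hairpin (log2 changes 0.21 and 0.19, edgeR adjusted p 0.148 and 0.189), and the block called it in both comparisons (edgeR adjusted p 0.00339 and 0.00874). The block also called KIF23, the motor of centralspindlin, with sh76 (log2 change 0.19, edgeR adjusted p 0.165 without the block and 0.00344 with it). It called KIF4A, a chromosome-arm and midzone motor, with sh78 (0.23, edgeR adjusted p 0.106 without and 0.00234 with the block). KIF11 was at 0.16 with sh78 (edgeR adjusted p 0.31 without and 0.00848 with the block). KIF15 and KIF22, which back up spindle bipolarity and push chromosome arms, were at −0.08 and −0.02 with sh76 and 0.09 and 0.02 with sh78, and passed neither fit. The sh76 libraries of KIF15 (34.6, 32.6 and 33.8 CPM) all lay below its scramble libraries (35.2, 35.7 and 35.8 CPM).

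Of the outer kinetochore pair, CENPF rose with both hairpins and CENPE passed edgeR's test with the block but not without it. CENPF (ENSG00000117724, chromosome 1, 214603195 to 214664588, plus strand), a large coiled-coil protein that accumulates towards mitosis, had 291, 326 and 304 CPM with scramble, 374, 356 and 361 CPM with sh76, and 358, 377 and 369 CPM with sh78. Every hairpin library was above the highest scramble library. CENPF rose by a log2 change of 0.24 with sh76 (SE 0.06, edgeR adjusted p 0.034) and 0.26 with sh78 (SE 0.06, edgeR adjusted p 0.0203). The sh76 call was lost without scramble replicate 1 or 3, any sh76 library, or sh78 replicate 2 or 3 (log2 changes 0.20 to 0.26, edgeR adjusted p 0.0504 to 0.106). The sh78 call was lost without scramble replicate 1 or 3 or sh78 replicate 2 or 3 (0.22 to 0.26, edgeR adjusted p 0.0699 to 0.085), and limma on FPKM called neither (adjusted p 0.0574 to 0.0872).

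CENPE (ENSG00000138778, chromosome 4, 103105806 to 103198409, minus strand), itself a kinesin that walks chromosomes to the spindle equator, had 60.8, 61.8 and 43.9 CPM with scramble. With sh76 it had 81.8, 75.6 and 67.3 CPM, and with sh78 74.7, 74.7 and 58.9 CPM. Replicate 3 was the lowest of each group, and each hairpin library was above the scramble library of its number. The log2 changes of 0.43 and 0.32 (SE 0.14 and 0.14) did not pass (edgeR adjusted p 0.115 and 0.243) and were called with the block (edgeR adjusted p 9.85e-08 and 3.54e-05). DESeq2 also called the sh76 difference.

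Summed per length over a role, the mitotic kinesins took 156, 150 and 160 FPKM with scramble, 176, 164 and 182 FPKM with sh76 and 179, 178 and 172 FPKM with sh78, with no overlap between hairpin and scramble libraries. The outer kinetochore pair took 31, 34.2 and 30.6 FPKM with scramble and 37.6 to 40.2 FPKM in the 6 hairpin libraries, again without overlap. The constitutive network overlapped between groups, at 148 to 153 FPKM with scramble, 134 to 151 with sh76 and 138 to 150 with sh78. Transport kinesins took 158 FPKM in each scramble library, 150 to 154 with sh76 and 161 to 163 with sh78. By FPKM the hairpins thus lay on opposite sides of scramble. Summed as CPM, sh76 (1348 to 1376) overlapped scramble (1368 to 1418), and sh78 (1437 to 1488) was above both. These sums are dominated by the members with the highest levels and are given without a test.

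**Figure D4:**
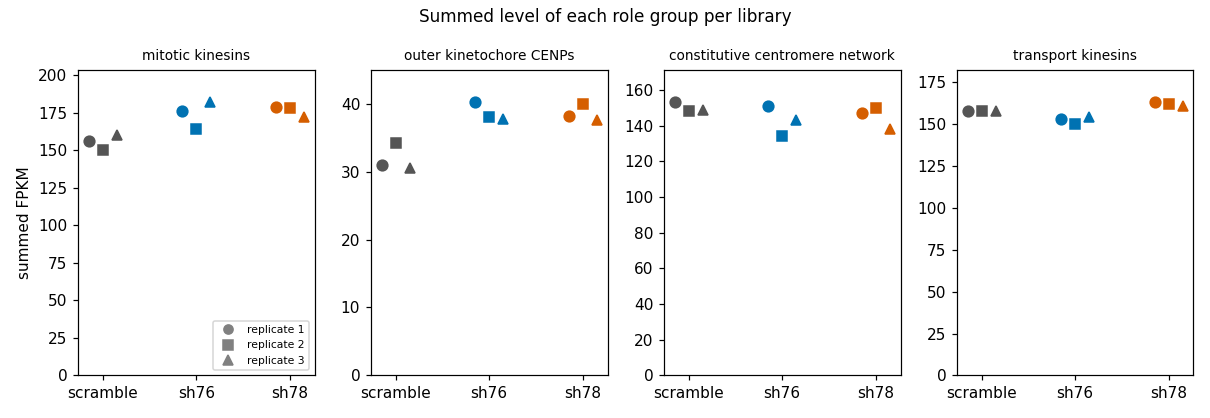
Summed FPKM of each role's members in each library (points; shape is the replicate number), axis from 0. For mitotic kinesins and the outer kinetochore pair all hairpin libraries are above all scramble libraries, and for transport kinesins sh76 is below and sh78 above the 158 FPKM of scramble. In summed CPM, not drawn, the transport kinesins of sh76 and scramble overlap.

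No member of the centromere chromatin and constitutive network groups was called against scramble by edgeR without the block. All 15 members placed in the constitutive network were tested and edgeR called 0 with sh76 and 0 with sh78 (1 and 0 at an unadjusted p under 0.05). Over all 17023 genes tested, 3.58% and 4.41% were called (2959 and 2983 genes at an unadjusted p under 0.05). In a list of 15 genes, 0 calls are near that called share. The network subunit ITGB3BP, whose name falls outside the rule, is not among the 15 and is given with the partners below. DESeq2 and limma also called 0 in both comparisons. The medians were 0.01 and 0.02, with values between −0.24 and 0.21 and between −0.20 and 0.14. The farthest with sh76 was CENPH, which helps dock the network on CENPA nucleosomes: it had 36.8, 33.8 and 38.2 CPM with scramble, 31.3, 29.3 and 31.5 CPM with sh76, and 39.1, 34.3 and 41.4 CPM with sh78. The sh76 libraries lay below the other 6 (log2 change −0.24 against scramble, edgeR adjusted p 0.178, 0.00813 with the block).

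CENPA had 22.9, 22.8 and 25.9 CPM with scramble, 25, 24.7 and 24 CPM with sh76 and 25.3, 25.8 and 23.5 CPM with sh78, and its groups overlapped (log2 changes 0.04 and 0.06). CENPB was at −0.05 and 0.07. CENPX, the most abundant member per length, was at −0.11 and −0.15, and CENPW, its histone-fold relative that pairs with CENPT, at 0.03 and −0.04. CENPS shares exon bases with CENPS-CORT and AL139424.1, 1126 of 1739 with the gene of larger overlap, so its 3.54 to 5.51 CPM are uncertain.

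Of the transport kinesins, KIF13A (ENSG00000137177, chromosome 6, 17759183 to 17987623, minus strand), which moves recycling endosomes, had 163, 161 and 161 CPM with scramble. With sh76 it had 129, 141 and 138 CPM, and with sh78 133, 133 and 135 CPM. No hairpin library reached the scramble range. KIF13A fell by 0.25 on the log2 scale with sh76 (SE 0.06, edgeR adjusted p 0.027) and by 0.27 with sh78 (SE 0.06, edgeR adjusted p 0.0133). The sh78 call held in all 16 alternatives, and the sh76 call was lost without any one scramble or sh76 library (log2 changes −0.28 to −0.21, edgeR adjusted p 0.0542 to 0.104) and with limma on FPKM (adjusted p 0.0598 and 0.0613).

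KIF1A (ENSG00000130294, chromosome 2, 240713761 to 240821036, minus strand), best known as the axonal carrier of synaptic vesicle precursors, had 11.8, 16 and 12.6 CPM with scramble. Its levels were 3.58, 7.12 and 4.82 CPM with sh76 and 9.91, 13.7 and 7.21 CPM with sh78. The sh76 libraries were below every other library, and sh78 overlapped scramble. KIF1A fell by 1.37 on the log2 scale with sh76 (SE 0.26, edgeR adjusted p 0.0146), whereas its value with sh78 was −0.39 (SE 0.25, edgeR adjusted p 0.481, 0.0224 with the block). The sh76 call was lost without scramble replicate 2 (−1.23, edgeR adjusted p 0.0618) or sh76 replicate 3 (−1.31, edgeR adjusted p 0.0693). It was also lost with limma on FPKM (adjusted p 0.109 and 0.0992), where log2(FPKM + 1), which shrinks low genes, gave −0.46.

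KIF1B and KIF3C rose with sh78. KIF1B (ENSG00000054523, chromosome 1, 10210805 to 10381603, plus strand), a carrier of mitochondria and vesicles, had 364, 342 and 322 CPM with scramble, 372, 362 and 372 CPM with sh76, and 439, 401 and 392 CPM with sh78. The sh78 libraries were above the other 6 (log2 change 0.26 against scramble, SE 0.06, edgeR adjusted p 0.0305). With sh76 the value was 0.11 (edgeR adjusted p 0.42). The sh78 call was lost without scramble replicate 2 or 3, sh76 replicate 2, or sh78 replicate 1 or 2 (log2 changes 0.21 to 0.28, edgeR adjusted p 0.0547 to 0.126) and with limma on FPKM (adjusted p 0.0907 and 0.0864).

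KIF3C (ENSG00000084731, chromosome 2, 25926596 to 25982749, minus strand) encodes a kinesin-2 motor subunit that pairs with KIF3A. It had 29.5, 31.5 and 29.2 CPM with scramble, 30.4, 32.7 and 30.9 CPM with sh76, and 41.3, 40.1 and 38.3 CPM with sh78. The sh78 libraries stood above the other 6, which overlapped. KIF3C rose with sh78 by a log2 change of 0.41 (SE 0.08, edgeR adjusted p 0.00956), a call that held in all 16 alternatives. With sh76 it was 0.06 (edgeR adjusted p 0.771). Its partner KIF3A and the other kinesin-2 subunit KIF3B were at 0.01 and 0.03 with sh78 and were not called.

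KIF5B, the second most abundant member per length, had 224, 232 and 230 CPM with scramble, 207, 192 and 199 CPM with sh76, and 219, 213 and 209 CPM with sh78. Both hairpins lay below scramble and sh76 the lower of the pair (log2 change −0.20 with sh76, edgeR adjusted p 0.0677, 0.000568 with the block, and −0.10 with sh78, edgeR adjusted p 0.415). DESeq2 called the sh76 difference of KIF5B. The block also called its neuronal relative KIF5C lower with sh76 (−0.21, edgeR adjusted p 0.473 without and 0.0297 with the block). KIF1C was at 0.15 with sh78 (edgeR adjusted p 0.275, 0.0157 with the block). KIF17, a dendritic motor at 0.592 to 3.27 CPM, had the lowest value of any member with sh78 except KIF26B, at −0.86 (SE 0.43, edgeR adjusted p 0.324), and its groups overlapped.

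Among the other kinesins, KIF26B (ENSG00000162849, chromosome 1, 245154985 to 245709431, plus strand) changed most. KIF26B is an unconventional kinesin known from kidney development and Wnt signalling rather than from cargo transport. It had 21.5, 15.1 and 16.5 CPM with scramble, 5.86, 6.59 and 5.96 CPM with sh76, and 9.21, 7.15 and 8.31 CPM with sh78. The hairpin groups lay apart from scramble and from each other, with sh76 the lowest. KIF26B fell by 1.52 on the log2 scale with sh76 (SE 0.16, edgeR adjusted p 0.000142) and by 1.10 with sh78 (SE 0.16, edgeR adjusted p 0.0012), to 0.35-fold and 0.47-fold of scramble. Both calls held in all 16 alternatives, although on log2(FPKM + 1) the values were −0.64 and −0.50. Its relative KIF26A, at 2.12 to 4.4 CPM, was at 0.33 and 0.43 and was not called.

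The remaining members of that group were not called without the block. KIF24, a centriolar depolymerase that restrains cilia, was at 0.26 with each hairpin (edgeR adjusted p 0.228 and 0.241, 0.0131 and 0.0197 with the block). KIF2A, a spindle-pole depolymerase, had 81.5, 78 and 83.2 CPM with scramble and was at −0.11 and −0.14. KIF7, a regulator of Hedgehog signalling at the cilium tip, was at −0.11 and 0.25. KIF1BP, which binds kinesins and is no motor itself, had 46.4 to 57.9 CPM with scramble and was at 0.02 and 0.04. Of the other CENP-named genes, CENPJ, a centriole protein, was at −0.02 with each hairpin, CENPV at −0.31 and 0.09, CENPBD1 at 0.01 and 0.15, and CENPVL3, at 0.429 to 2.48 CPM, at −0.90 and 0.38.

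**Figure D5:**
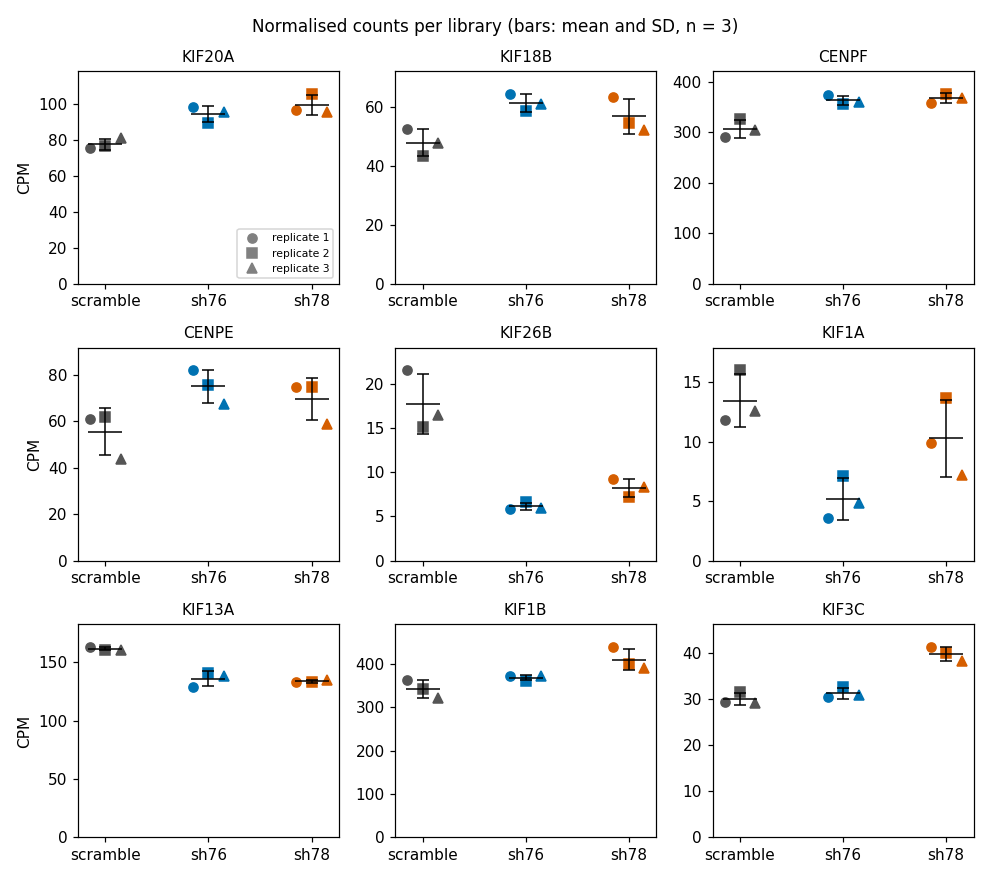
CPM per library (points; shape is the replicate number, dashes and bars are mean and SD, n = 3) of the 8 members called against scramble and of CENPE, each axis from 0. KIF20A, CENPF, KIF13A and KIF26B separate both hairpins from scramble, KIF18B and KIF1A separate sh76, and KIF1B and KIF3C separate sh78.

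Directly compared, sh78 and sh76 differed at 1 member, KIF3C, which was higher with sh78 by a log2 change of 0.35 (SE 0.08, edgeR adjusted p 0.0281). Of all genes tested 3.7% were called, 1.97% higher and 1.72% lower with sh78, and the median was 0.05 for the members and 0.00 for all genes. The KIF3C call was lost without any one sh76 or sh78 library (0.32 to 0.38, edgeR adjusted p 0.0515 to 0.109) and with limma on FPKM (adjusted p 0.0534 and 0.0543). With the block 13 members were called, 12 higher and 1 lower with sh78, against 18.3% of all genes (9.69% higher, 8.62% lower).

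No mitotic kinesin was called between the hairpins by edgeR with or without the block, by DESeq2 or by limma (0 at an unadjusted p under 0.05). Over all 17023 genes tested edgeR called 3.7% without and 18.3% with the block, and 2768 had an unadjusted p under 0.05. In a list of 12 genes, 0 calls without the block are near that share. The log2 differences of the mitotic kinesins ran from −0.11 to 0.17. The 13 members that the block called between hairpins were 5 transport kinesins, 4 other kinesins and 4 CENP-named genes. KIF1A was higher with sh78 than with sh76 by 0.97 (edgeR adjusted p 0.0717, 1.36e-06 with the block), KIF5C by 0.33 (0.241, 0.000671 with the block) and KIF1B by 0.16 (0.227, 0.00688 with the block). KIF21B, a neuronal motor that tunes microtubule growth, was the member called lower with sh78, at −0.63 (edgeR adjusted p 0.131, 0.00746 with the block). KIF12, KIF26B, KIF27 and KIF7 were higher with sh78 by 0.53, 0.42, 0.52 and 0.35 (edgeR adjusted p 0.159, 0.203, 0.256 and 0.195, and 0.00236, 0.0306, 0.0191 and 0.0135 with the block). The remaining 4 were CENPVL3, at the largest difference of 1.28 (edgeR adjusted p 0.103, 0.00378 with the block), CENPV, CENPH and CENPU, at 0.39, 0.32 and 0.22 (0.0287, 0.000504 and 0.0128 with the block). Of the 13, CENPH, KIF1A and KIF3C were also called by DESeq2.

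Partners of the members, taken from lists of genes outside the naming rule, were read in the same fits. Of 10 genes of the KMN network, the microtubule-binding core of the outer kinetochore, SPC24 rose with both hairpins, and the other 9 were not called without the block. With the block edgeR also called KNL1, the scaffold of the network, higher with sh76 (0.17, adjusted p 0.012), and NDC80 higher with sh78 (0.17, adjusted p 0.0265). SPC24, a subunit of the NDC80 complex, had 44, 48.2 and 55.5 CPM with scramble, 73.1, 68.5 and 73.3 CPM with sh76, and 64, 70.9 and 70.7 CPM with sh78, without overlap. SPC24 was 0.54 and 0.48 above scramble on the log2 scale (edgeR adjusted p 0.00358 and 0.00625), and both calls held in all 16 alternatives. The list medians were 0.11 and 0.09.

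Of 11 mitotic kinases, cyclins and proliferation markers, MKI67 rose with both hairpins, and the other 10 were not called without the block. With the block edgeR also called TPX2, a spindle assembly factor, higher with both (0.15 and 0.14, adjusted p 0.00803 and 0.018), and TOP2A, a DNA topoisomerase, higher with sh78 (0.16, adjusted p 0.00554). MKI67, the gene of the Ki-67 proliferation antigen, had 405, 408 and 393 CPM with scramble, 494, 490 and 509 CPM with sh76, and 506, 530 and 457 CPM with sh78 (log2 changes 0.31 and 0.31, edgeR adjusted p 0.0125 and 0.00956). The sh76 call was lost without scramble replicate 3 or sh76 replicate 2 or 3 (0.29 to 0.32, edgeR adjusted p 0.0506 to 0.0518) and with limma on FPKM (adjusted p 0.0564 and 0.0536), and the sh78 call without sh78 replicate 2 (0.26, edgeR adjusted p 0.055). The list medians were 0.08 and 0.10, against 0.18 for mitotic kinesins, a difference that was not tested. The spindle checkpoint (6 genes) and CENPA loading (4 genes) lists had 0 calls in edgeR with either hairpin (2 of each list with sh76, and 2 and 1 with sh78, at an unadjusted p under 0.05). With the block edgeR called 3 checkpoint genes with sh76, BUB1B and TTK higher and MAD2L1 lower (0.15, 0.23 and −0.16, adjusted p 0.0271, 0.00389 and 0.022), and 2 with sh78, BUB1B and BUB3, both higher (0.30 and 0.14, adjusted p 7.39e-06 and 0.0168). Of the CENPA loading genes it called MIS18A lower with sh76 (−0.22, adjusted p 0.0138) besides HJURP. DESeq2 called 1 gene of these lists, HJURP, the chaperone that loads CENPA, with sh78, and limma called 0. HJURP was at 0.23 and 0.33 (edgeR adjusted p 0.188 and 0.0536, 0.00548 and 8.87e-05 with the block).

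Centralspindlin and the passenger complex, the partners of KIF23 and KIF20A, gave 1 call among 7 genes with sh78 and 0 with sh76 by edgeR. With sh76, 1 gene was at an unadjusted p under 0.05, and DESeq2 and limma called 0. With sh78, DESeq2 called 2, RACGAP1 and ECT2, and limma called 0. RACGAP1, the non-motor subunit of centralspindlin, had 118, 118 and 123 CPM with scramble, 141, 132 and 145 CPM with sh76, and 137, 152 and 139 CPM with sh78. The log2 change was 0.25 with sh78 (edgeR adjusted p 0.0425) and 0.21 with sh76 (edgeR adjusted p 0.0886, 0.00106 with the block). The sh78 call was lost without any one of the 9 libraries (0.19 to 0.28, edgeR adjusted p 0.0505 to 0.18) and with limma on FPKM (adjusted p 0.0999 and 0.0948). ECT2, the exchange factor that centralspindlin recruits, was higher with sh78 than with sh76 by 0.34 (edgeR adjusted p 0.00555), with 149, 143 and 148 CPM with sh76, 194, 187 and 175 CPM with sh78 and 156 to 162 CPM with scramble. Against scramble it was at −0.12 with sh76 and 0.21 with sh78 (edgeR adjusted p 0.296 and 0.057, 0.0426 and 0.000342 with the block).

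On the transport side, TRAK1 and TRAK2, which link conventional kinesin to mitochondria, were the 2 genes that edgeR called among 10 cargo adaptors without the block. MAPK8IP1, a JNK scaffold that binds kinesin light chains, was lower with sh78 than with sh76 (−0.30, edgeR adjusted p 0.0668, 0.000495 with the block), and DESeq2 called that difference. The block also called MAPK8IP1 higher and RHOT1, a mitochondrial GTPase that holds TRAK proteins, lower with sh76 against scramble (0.21 and −0.25, edgeR adjusted p 0.0122 and 0.0239), and MAPK8IP3 higher with sh78 than with sh76 (0.15, edgeR adjusted p 0.0172). TRAK1 had 203, 192 and 195 CPM with scramble, 192, 182 and 178 CPM with sh76, and 230, 229 and 231 CPM with sh78. It rose with sh78 against scramble (0.23, edgeR adjusted p 0.0335) and was higher with sh78 than with sh76 (0.32, edgeR adjusted p 0.00562). The call against scramble was lost without scramble replicate 2 or 3, sh76 replicate 2 or any sh78 library (0.21 to 0.23, edgeR adjusted p 0.0583 to 0.136) and with limma on FPKM (adjusted p 0.0669 and 0.0663), and the call between hairpins held in all 16 alternatives. TRAK2 had 87.9, 82.3 and 76.5 CPM with scramble and 68.6, 67.2 and 62.7 CPM with sh76, and fell with sh76 by 0.31 on the log2 scale (edgeR adjusted p 0.0379). That call was lost without scramble replicate 1 or 2, any sh76 library or sh78 replicate 3 (−0.34 to −0.27, edgeR adjusted p 0.0516 to 0.14) and with limma on FPKM (adjusted p 0.092 and 0.0935). TRAK2 was also 0.20 higher with sh78 than with sh76 (edgeR adjusted p 0.201, 0.00584 with the block).

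The 9 genes listed as kinesin relatives outside the rule include ITGB3BP (CENP-R), which is a constitutive network subunit and no kinesin relative. ITGB3BP was at 0.03 with sh76 and 0.13 with sh78 and was not called. Of the 9, KIFC3, a minus-end-directed motor of cell junctions and Golgi, was the single call. It had 146, 146 and 142 CPM with scramble, 145, 155 and 143 CPM with sh76, and 199, 191 and 189 CPM with sh78. KIFC3 rose with sh78 by a log2 change of 0.42 (edgeR adjusted p 0.000991) and was 0.38 above sh76 (edgeR adjusted p 0.0023), and both calls held in all 16 alternatives. As with KIF3C, the sh78 libraries stood above the other 6. KIFC1, the minus-end motor that clusters spindle poles, was at 0.22 and 0.21 (edgeR adjusted p 0.178 and 0.217, 0.00291 and 0.00705 with the block).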

How the data were processed

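Poly-A RNA of OVCAR3 cells was sequenced in 9 non-directional libraries (3 per group), per the labels. The authors deposited raw gene counts and FPKM values in separate tables. The submitters' processing notes name HISAT2 2.0.5, featureCounts 1.5.0-p3 and hg38; settings and annotation are not given in the sources used here. All 58735 gene identifiers matched GENCODE release 29 in start and end, which supplied coordinates and exon overlaps (24 members share exon bases with another counted gene). The members, role groups and partner lists were chosen with earlier results of these data known.

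The test was that of edgeR 4.0.16 (R 4.3.3), fitted to the counts of all 9 libraries (filterByExpr with minimum count 10 and minimum total 15, TMM factors, robust quasi-likelihood F tests, 1 coefficient per group). The Benjamini-Hochberg adjustment ran over 17023 genes; values under 0.05 count as calls. The common biological coefficient of variation was 10.4%. The test was checked on data simulated for sh76 against scramble, with 200 genes changed by 1 on the log2 scale. It recovered 69.0% of these genes, and 4.2% of its calls were false. Smaller changes were not simulated, and neither was a shared deviation of same-numbered libraries. The rates hold for simulated data without that deviation. Levels between genes use FPKM. Replicate pairs of a group differed beyond sampling noise (chi-square per degree of freedom 3.64 to 7.49). P-values measure the spread between these samples, which may be technical.

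The labels number replicates 1 to 3 in each group. Across genes, deviations from group means correlated in all 9 same-numbered pairs (r 0.14 to 0.39) and less in the 18 others (−0.31 to 0.06), so a block on the number was read as pairing the libraries. The 16 alternatives were that block, DESeq2 1.42.0 size factors or its Wald test, no or a stricter count filter, limma 3.58.1 on log2 FPKM plus 1 or 0.1 for genes with a mean of at least 0.1, and leaving out each library. Named genes were GPX3, each member called in a comparison, the 3 highest members per role in scramble, the 2 highest and 2 lowest fold changes per comparison, and called partner genes. Further members are named for values already seen. Promoter windows are RefSeq's on GRCh38.p14.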

Additional observations from a re-analysis of the deposited data

Results flagged for a closer look

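The 2 hairpins differed in their effect on KIF3C, by a direct test of sh78 against sh76: the log2 difference was 0.35 (edgeR adjusted p 0.0281), with 3 of 3 sh78 libraries above all 3 sh76 libraries. With the replicate block the edgeR adjusted p was 0.00016. Groups of 3 libraries are too small for an outlier check.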

How the results depend on the processing

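The count of members called depended on the pairing and the test. With the replicate block it was 15 for sh76, 16 for sh78 and 13 for sh78 against sh76, in place of 6, 6 and 1. With limma on log2(FPKM + 1) and on log2(FPKM + 0.1), sh76 called 1 and 1 members and sh78 against sh76 called 0 and 0. DESeq2's Wald test called 9 members for sh76, 6 for sh78 and 3 for sh78 against sh76. Testing without the count filter called 4 for sh78 against sh76. Leaving out each library gave 1 to 7 for sh76, 4 to 6 for sh78 and 0 to 1 for sh78 against sh76. Where a group has 2 libraries left, edgeR's shared dispersion carries the test. Of the 27 called gene results, over 432 settings, 334 kept their call, 98 lost it and none changed sign; 13 results kept it in every setting. Another 24 results were called with the block and not without it; over 384 settings, the block included, they were called in 35. The cause of these shifts was not tested. Replacing TMM by DESeq2 size factors moved the median of all genes by under 0.01. Genes near 1 CPM, such as KIF4B and CENPVL3, had SEs of 0.38 to 0.57 on the log2 scale.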
